A study of Mus musculus with 8 samples.

Results

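The enzyme genes of serine synthesis and one-carbon metabolism were followed in neonatal cardiomyocytes (NCMs) of mice exposed before birth to filtered air (FA) or diesel exhaust (DE). They are the 10 rows of the count table whose Entrez identifiers belong to Phgdh, Psat1, Psph, Shmt1, Shmt2, Mthfd1, Mthfd2, Mthfd1l, Mat2a and Ahcy, of 27179 genes in all. Each of the 8 libraries held poly-A RNA from the NCMs of a single male C57Bl/6 J heart, collected on postnatal day 0. Their mothers had breathed FA or DE from the morning after mating until shortly before birth. There were 4 FA libraries (replicates 2, 3, 4 and 6) and 4 DE libraries (replicates 1, 3, 5 and 7), with 17943024 to 39839737 counted fragments each. In both groups the hearts were trimmed of atria and vessels and dissociated, and the cells stood in medium with Ara-C, an inhibitor of DNA synthesis, while fibroblasts attached to the plate. The litters from which the pups came are not named in the sources used here, so the p-values below measure the spread between these hearts only. The sample names hold a number, 11 for every FA library and for DE replicates 1 and 7 and 12 for DE replicates 3 and 5, whose meaning is not stated.

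Serine is built from a glycolytic intermediate by PHGDH, PSAT1 and PSPH in turn. Serine hydroxymethyltransferases then pass a carbon from serine to tetrahydrofolate and leave glycine, SHMT2 in mitochondria and SHMT1 in the cytosol. In mitochondria MTHFD2 oxidizes the carried carbon and MTHFD1L releases it as formate, while in the cytosol MTHFD1 takes formate up again and prepares the carbon for purines, thymidylate and methionine. MAT2A turns methionine into S-adenosylmethionine, the methyl donor of DNA and histone methylation, and AHCY removes the S-adenosylhomocysteine that methylation leaves. Genes of serine synthesis and of the mitochondrial branch are known targets of ATF4, the transcription factor of the integrated stress response, and the pathway is known to be active in proliferating cells.

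In the DE libraries Mthfd2 was 77.6% higher than in FA, Mthfd1l 64.2%, Phgdh 50.7% and Shmt2 39.7% higher, and these 4 of the 10 genes passed the test. They are the entry enzyme of serine synthesis and the 3 mitochondrial folate enzymes of the set. Psat1 and Ahcy were higher in DE without passing, and Psph, Shmt1, Mthfd1 and Mat2a differed by 13.2% or less. None of the 10 was called lower. A gene was called where edgeR's quasi-likelihood test gave an adjusted p of 0.05 or less (Benjamini-Hochberg over all tested genes) and the groups differed by at least 25%. All 10 genes passed the filter on low counts, and the least counted of them, Psph, had 146 to 465 fragments in a library. Of the 14966 genes tested, 5.8% were called, 3.58% higher and 2.22% lower in DE, against 4 of these 10, all higher. Higher calls made up 61.8% of all calls with TMM scaling and 78.7% with library totals alone. At an unadjusted p under 0.05, 6 of the 10 differed, against 25.6% of all tested genes. With the 25% difference built into edgeR's test, a stricter question, 0 of the 10 were called (0.762% of all tested genes), and the smallest adjusted p was 0.0563, for Mthfd1l. DESeq2 called 6, adding Psat1 and Ahcy, and 10.9% of all tested genes. The median log2 fold change was 0.40 over the 10 genes and 0.0037 over all tested genes.

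Upstream sequences of the 4 called genes, and of the cytosolic counterparts Shmt1 and Mthfd1 that were not called, are shown so that their proximal promoters can be compared. The stretches are the last 150 bases before a start site that RefSeq gives on GRCm38.p6, written 5′ to 3′ on the strand of the gene. Capitals mark CCAAT, or its reverse complement ATTGG, the box that the factor NF-Y binds.
Phgdh, chr3:98339970-98340119, minus strand: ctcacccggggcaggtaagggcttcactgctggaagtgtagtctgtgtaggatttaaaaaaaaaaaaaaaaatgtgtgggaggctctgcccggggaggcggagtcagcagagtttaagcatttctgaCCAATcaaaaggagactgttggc
Shmt2, chr10:127522445-127522594, minus strand: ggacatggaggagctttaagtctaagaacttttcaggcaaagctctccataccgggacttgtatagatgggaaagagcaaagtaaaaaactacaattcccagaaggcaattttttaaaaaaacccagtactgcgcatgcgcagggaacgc
Mthfd2, chr6:83317605-83317754, minus strand: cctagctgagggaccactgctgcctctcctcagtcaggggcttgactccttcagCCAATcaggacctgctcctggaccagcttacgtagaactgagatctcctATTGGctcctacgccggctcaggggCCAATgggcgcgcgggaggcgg
Mthfd1l, chr10:3972925-3973074, plus strand: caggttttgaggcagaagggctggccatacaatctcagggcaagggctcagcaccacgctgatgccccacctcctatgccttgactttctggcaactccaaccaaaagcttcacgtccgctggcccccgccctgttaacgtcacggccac
Shmt1, chr11:60811266-60811415, minus strand: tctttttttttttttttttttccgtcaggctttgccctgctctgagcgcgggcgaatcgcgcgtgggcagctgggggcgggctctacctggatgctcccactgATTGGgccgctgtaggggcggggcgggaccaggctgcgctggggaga
Mthfd1, chr12:76255082-76255231, plus strand: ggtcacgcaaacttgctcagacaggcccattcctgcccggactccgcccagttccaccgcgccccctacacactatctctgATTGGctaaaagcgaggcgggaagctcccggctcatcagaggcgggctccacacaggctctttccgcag
A CCAAT box lay in the printed stretch of Phgdh, Mthfd2, Shmt1 and Mthfd1 and in that of neither Shmt2 nor Mthfd1l. Mthfd2 held 3 boxes, starting 96, 47 and 22 bases before the start site. Within 250 bases before the start, 8 of the 10 genes had such a box, and so did 33.8% of the 32851 mouse promoters in the table. Of the 8, Phgdh and Mthfd2 were called and the other 6 were not, and the called genes Shmt2 and Mthfd1l had no such box. The letters TGATGCAA, a core that ATF4 binds with C/EBP partners, were in the 250 bases of none of the 10 genes and in 0.791% of all promoters. The same held for CACGTG, the E-box of Myc and related factors (6.02% of all promoters), and for TTTNGCGC, an E2F core (1.13%). Both strands were searched for every motif, and Psat1, which has 2 start sites in RefSeq, was counted if either window matched. The stretches of Mthfd2, Mthfd1 and Mthfd1l lie inside the gene positions given below, which begin farther upstream, and so does that of Psph, which is not printed. Windows set from those earlier ends were not searched. The printed stretch of Mthfd1 also lies inside an exon of the antisense gene Gm47525, and the last 21 bases of that of Phgdh fall inside a GENCODE exon of Phgdh.

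**Figure D1:**
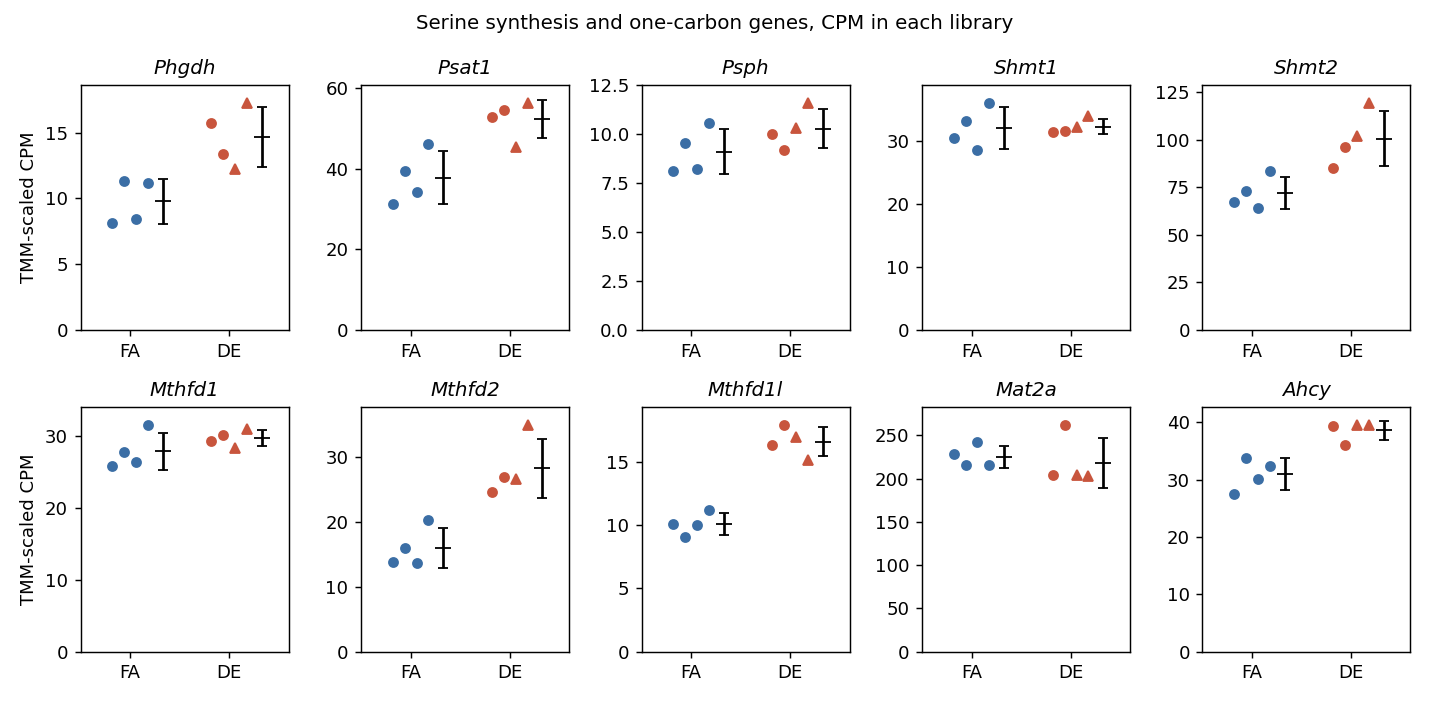
Each panel plots the TMM-scaled CPM of a gene in the 4 FA (blue) and 4 DE (red) libraries from a baseline of 0, with circles for libraries whose name carries 11, triangles for 12, and a bar for the mean ± SD. FA and DE points are apart for Phgdh, Shmt2, Mthfd2, Mthfd1l and Ahcy and mix in the other 5 panels.

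Phgdh (Entrez gene 236539, at 98313171 to 98339969 on chromosome 3 of GRCm38.p6) encodes the enzyme that commits carbon to serine. Its level was 8.15, 11.4, 8.41 and 11.2 CPM (counts scaled by library total and by TMM, the trimmed mean of M-values) in FA replicates 2, 3, 4 and 6. In DE replicates 1, 3, 5 and 7 it was 15.8, 12.2, 17.3 and 13.4 CPM. Every DE library stood above every FA library, though the lowest DE value, 12.2, was close to the highest FA value, 11.4. FA hearts averaged 9.77 ± 1.73 CPM and DE hearts 14.7 ± 2.27 CPM (SD, n = 4 per group). The difference was 0.59 ± 0.16 on the log2 scale (SE, adjusted p = 0.0492). That adjusted p is just inside the threshold, and leaving out any single library ended the call: it was 0.154 without FA replicate 2, 0.0589 without FA replicate 3, 0.155 without FA replicate 4, 0.0536 without FA replicate 6, and 0.0720, 0.0692, 0.110 and 0.0600 without DE replicates 1, 3, 5 and 7. It was 0.115 with the number in the sample names as a term. The mouse genome also holds a pseudogene of Phgdh, and how reads that fit both were counted is not stated.

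Psat1 (Entrez gene 107272, chromosome 19 from 15905123 to 15925059), the aminotransferase of the second step, ranged more widely in FA. It lay at 31.3, 39.5, 34.1 and 46.2 CPM in FA replicates 2, 3, 4 and 6 and at 52.8, 45.5, 56.2 and 54.6 CPM in DE replicates 1, 3, 5 and 7. FA replicate 6, the highest FA library, stood above DE replicate 3, the lowest DE library, so the groups overlapped. The difference, 0.47 ± 0.13 on the log2 scale (SE, adjusted p = 0.0572), was outside the threshold, and without FA replicate 6 it was 0.58 with an adjusted p of 0.0267. DESeq2 called Psat1 (adjusted p = 0.0129). Psph (Entrez gene 100678, chromosome 5 from 129765558 to 129787443), the phosphatase of the last step, lay between 8.10 and 10.6 CPM in FA and between 9.22 and 11.6 CPM in DE. Its interval for DE over FA ran from 0.930-fold to 1.38-fold (95%). The estimate for Phgdh, 1.51-fold, was outside it, but the interval of Phgdh, from 1.19-fold to 1.91-fold, overlapped it. The difference between Psph and Phgdh was not tested. Psph overlaps the neighbouring gene Cct6a by 88 bases, and how the authors assigned fragments to overlapping genes is not stated.

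Of the mitochondrial enzymes, Mthfd1l had a gap between the groups wider than the range within either. For Mthfd2 the gap was smaller than the range within either group, and for Shmt2 it was narrow. Mthfd2 (Entrez gene 17768, chromosome 6 from 83305704 to 83326011), the dehydrogenase and cyclohydrolase that oxidizes the folate-bound carbon, was at 13.9, 16.0, 13.7 and 20.3 CPM in FA replicates 2, 3, 4 and 6. In DE replicates 1, 3, 5 and 7 it was at 24.6, 26.6, 35.0 and 26.9 CPM. No DE library fell as low as the highest FA library, replicate 6, and DE replicate 5 stood above the other DE libraries. Averages of 15.9 ± 3.07 and 28.3 ± 4.59 CPM (SD, n = 4 per group) differed by 0.83 ± 0.15 on the log2 scale (SE, adjusted p = 0.0138). The call was lost without FA replicate 2 (adjusted p = 0.0545) or without FA replicate 4 (0.0592), at log2 fold changes of 0.76 each.

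Mthfd1l (Entrez gene 270685, chromosome 10 from 3972892 to 4167081) encodes the synthetase that releases formate from mitochondria. It was counted at 10.1, 9.07, 9.99 and 11.2 CPM in FA replicates 2, 3, 4 and 6 and at 16.3, 17.0, 15.1 and 17.9 CPM in DE replicates 1, 3, 5 and 7. The gap between the groups, from 11.2 to 15.1 CPM, was wider than the range of either group. FA averaged 10.1 ± 0.879 CPM and DE 16.6 ± 1.16 CPM (SD, n = 4 per group). On the log2 scale this was 0.72 ± 0.11 (SE, adjusted p = 0.00560), which ranked 100 by p among all tested genes. Leaving out any library kept the call, with adjusted p between 0.00714 and 0.0314.

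Shmt2 (Entrez gene 108037, chromosome 10 from 127517123 to 127522444), the mitochondrial serine hydroxymethyltransferase, lay at 67.4, 72.9, 64.2 and 83.5 CPM in FA replicates 2, 3, 4 and 6. DE replicates 1, 3, 5 and 7 held 84.9, 102, 119 and 96.1 CPM. DE replicate 1 was only just above FA replicate 6, and replicates 3 and 5, the libraries with the number 12, were the highest of all. FA averaged 72.0 ± 8.46 CPM against 101 ± 14.4 CPM in DE (SD, n = 4 per group), a log2 difference of 0.48 ± 0.12 (SE, adjusted p = 0.0457). The call was lost without FA replicate 2, 3 or 4 (adjusted p = 0.140, 0.0832 and 0.149) and without DE replicate 3, 5 or 7 (0.121, 0.102 and 0.0625). With the name number as a term in the fit the log2 fold change of Shmt2 was 0.33 (adjusted p = 0.204). Shmt2 shares 32 bases with Ndufa4l2.

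The cytosolic enzymes of the same reactions stayed near their FA levels. Shmt1 (Entrez gene 20425, chromosome 11 from 60788897 to 60811265) was at 30.5, 33.3, 28.6 and 36.1 CPM in FA replicates 2, 3, 4 and 6. In DE replicates 1, 3, 5 and 7 it was at 31.4, 32.3, 34.0 and 31.6 CPM, all inside the FA range. The interval of its difference ran from 0.867-fold to 1.17-fold, with an estimate of 0.01 on the log2 scale whose sign depended on the fit. Mthfd1 (Entrez gene 108156, chromosome 12 from 76254406 to 76319820), which joins formate to tetrahydrofolate in the cytosol, lay between 25.8 and 31.5 CPM in FA and between 28.3 and 31.0 CPM in DE. Its interval ran from 0.918-fold to 1.23-fold (log2 fold change 0.09, adjusted p = 0.587).

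**Figure D2:**
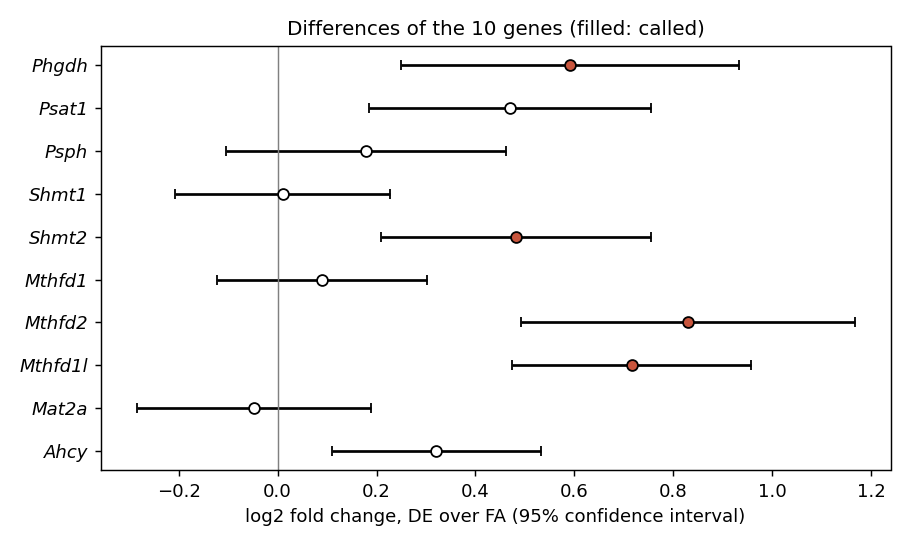
Points show the log2 fold change of DE over FA for each gene from edgeR's quasi-likelihood fit, and bars its 95% confidence interval, with filled points for called genes. The intervals of Mthfd2 and Mthfd1l start at 0.49 and 0.47, while those of Psph, Shmt1, Mthfd1 and Mat2a span 0.

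Because a ratio within a library does not depend on its total, the mitochondrial and cytosolic enzymes were also set against each other by their fragment counts. These ratios were chosen after the values above were seen and are given as a description. Fragments of Shmt2 per fragment of Shmt1 numbered 2.21, 2.19, 2.25 and 2.31 in FA replicates 2, 3, 4 and 6, and 2.70, 3.16, 3.51 and 3.04 in DE replicates 1, 3, 5 and 7. The 4 FA hearts lay within a narrow band, and all 4 DE hearts lay above it. Mthfd2 per Mthfd1 ran from 0.518 to 0.643 in FA and from 0.841 to 1.13 in DE. Mthfd1l per Mthfd1 ran from 0.327 to 0.389 in FA and from 0.489 to 0.598 in DE. In none of the 3 ratios did the groups overlap. Per kilobase of exon the median ratio of Mthfd2 to Mthfd1 was 0.865 in FA and 1.43 in DE.

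**Figure D3:**
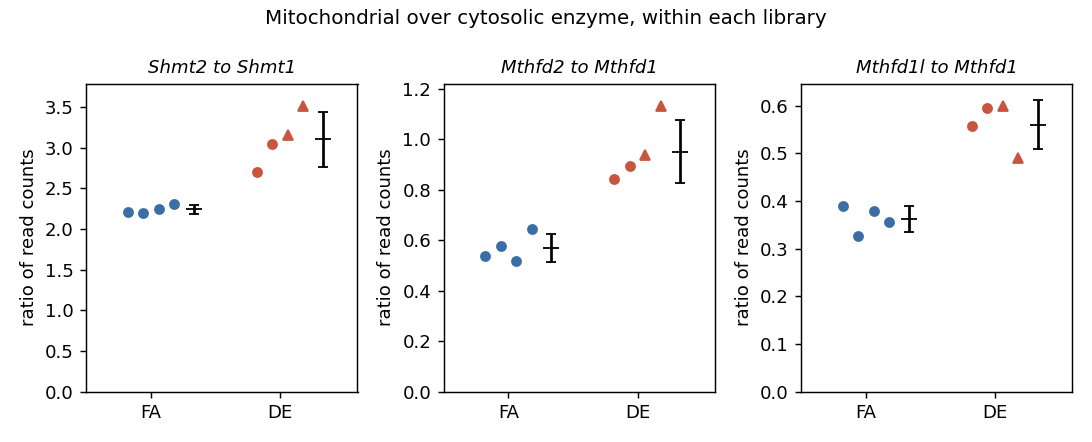
The panels plot, for each library, the ratio of fragment counts of a mitochondrial to a cytosolic enzyme from a baseline of 0, with FA in blue, DE in red, triangles for libraries named with 12 and a bar for the mean ± SD. For Shmt2 to Shmt1 the FA points end at 2.31 and the DE points start at 2.70.

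Of the methionine cycle enzymes, Ahcy (Entrez gene 269378, chromosome 2 from 155059310 to 155074497), the hydrolase of S-adenosylhomocysteine, was at 27.5, 33.8, 30.1 and 32.4 CPM in FA replicates 2, 3, 4 and 6. It was at 39.3, 39.5, 39.6 and 36.0 CPM in DE replicates 1, 3, 5 and 7. The groups did not overlap, but the difference of 24.9% (0.32 ± 0.10 on the log2 scale, SE, adjusted p = 0.0738) missed both thresholds of a call. DESeq2 called Ahcy, at an adjusted p of 0.0198. Separate groups were seen for 5 of the 10 genes and for 14.7% of all tested genes.

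Mat2a (Entrez gene 232087, chromosome 6 from 72432796 to 72439556), the catalytic subunit that makes S-adenosylmethionine, had 228, 216, 242 and 216 CPM in FA replicates 2, 3, 4 and 6. It had 204, 204, 203 and 262 CPM in DE replicates 1, 3, 5 and 7. DE replicates 1, 3 and 5 stood below every FA library and DE replicate 7 stood above all of them, so the mean difference came from DE values on both sides of FA (log2 fold change -0.05, adjusted p = 0.808). Without DE replicate 7 the log2 fold change was -0.15 (adjusted p = 0.305). Mat2a shares 564 bases with Ggcx and 874 with the antisense RNA Particl, and the strand setting of the counting is not stated.

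The 10 genes differ widely in level, which is comparable between genes only per length. Per kilobase of exon the FA means fell in the order Mat2a (66.5 CPM per kb), Shmt2 (31.2), Psat1 (12.9), Ahcy (12.2), Shmt1 (11.2), Mthfd1 (8.60), Mthfd2 (7.65), Psph (5.26), Phgdh (5.16) and Mthfd1l (2.36). In FA the ranges of the neighbours Psat1 and Ahcy, Ahcy and Shmt1, Mthfd1 and Mthfd2, and Psph and Phgdh overlapped. Within every FA library Ahcy stood above Shmt1 and Mthfd1 above Mthfd2, by little in replicate 6. There Ahcy was at 12.7 and Shmt1 at 12.6 CPM per kb, and Mthfd1 at 9.73 and Mthfd2 at 9.72. Psat1 and Ahcy, and Psph and Phgdh, changed order between FA libraries, so their order is not settled by these hearts. In DE, Mthfd2 was at 13.6 CPM per kb, ahead of Shmt1 at 11.3. The lowest Mthfd2 value, 11.8 in DE replicate 1, was within the range of Shmt1. Within each DE library, however, Mthfd2 stood above Shmt1. Phgdh was at 7.75 CPM per kb in DE and Psph at 5.93. Mthfd1l stayed the lowest of the 10 in both groups.

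Libraries differed within groups in the same direction for many of the 10 genes. FA replicate 6 was the highest FA library for 7 genes, and FA replicate 2 the lowest for 5. Among DE libraries, replicate 5 was the highest for 8 genes. Between DE libraries with the number 12 and those with 11, in a model of 3 groups, none of the 10 genes was called, against 2.06% of all tested genes, and at an unadjusted p of 0.05 none passed either. The nearest was Shmt2, 0.29 higher on the log2 scale in those with 12 (standard error 0.15, adjusted p = 0.261). With the libraries numbered 11 alone, 4 FA and 2 DE, Mthfd1l was the only one of the 10 called (log2 fold change 0.76, adjusted p = 0.0192), and 1.75% of the genes tested there were called. There Mthfd2 was at 0.69 (adjusted p = 0.0622), Phgdh at 0.58 (0.119) and Shmt2 at 0.32 (0.253).

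Genes around the 10 enzymes were taken from 4 lists with 52 members, of which 47 were tested. Of these, 6 were called, all higher in DE, against 5.8% called and 3.58% called higher of all tested genes. In all, 24 were higher and 23 lower and their median log2 fold change was 0.0012. Higher and lower genes were thus about equal in number. For serine and glycine supply, none of the 12 tested genes was called with edgeR, and 3 had an unadjusted p under 0.05, about the share over all tested genes (25.6%). Slc1a5, a transporter of glutamine and neutral amino acids, was at 31.7 to 39.7 CPM in FA and 42.7 to 57.8 CPM in DE (log2 fold change 0.45, adjusted p = 0.0612). Sfxn1, the carrier of serine into mitochondria, had a log2 fold change of 0.37 (adjusted p = 0.0587), and Slc25a32, the carrier of folate into mitochondria, of -0.21 (adjusted p = 0.550). Both carriers were picked out after their values were seen. Gcsh, a subunit of glycine cleavage, differed little, at 28.9 to 36.9 CPM in FA and 32.3 to 38.9 CPM in DE.

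In the folate cycle 3 of 15 genes (20%) were called, all higher, where 3.58% of all tested genes were called higher. Tyms, which uses folate carbon to make thymidylate, was at 13.0 to 16.7 CPM in FA and 18.2 to 21.5 CPM in DE (log2 fold change 0.48, adjusted p = 0.0388). Aldh1l1, which oxidizes formyl-folate in the cytosol, was at 4.01 to 4.78 and 6.23 to 7.41 CPM (0.64, adjusted p = 0.0195). For Ggh, the hydrolase that shortens folate polyglutamates, the ranges were 8.77 to 12.0 and 13.3 to 16.3 CPM (0.50, adjusted p = 0.0433). Groups did not overlap for 5 of the 15 folate genes, against 14.7% of all tested genes: these 3 and, lower in DE without a call, Gart and Slc19a1, the latter a folate carrier picked out after its values were seen (log2 fold change -0.33). Aldh1l1 lost its call without FA replicate 2 or 4 or DE replicate 3 (adjusted p = 0.0803, 0.0734 and 0.0533), Tyms lost it without FA replicate 2, 3 or 4 or DE replicate 3 or 5 (0.119, 0.0839, 0.133, 0.118 and 0.0866), and Ggh kept it only where FA replicate 6 was the library left out (0.0505 to 0.141 without each of the others). With the name number as a term Aldh1l1 kept its call, and Tyms (adjusted p = 0.162) and Ggh (0.146) did not. Other mitochondrial folate enzymes were not called higher: Mthfd2l had a log2 fold change of -0.15 (adjusted p = 0.453) and was picked out after its value was seen, and Aldh1l2, the mitochondrial counterpart of Aldh1l1, was at 36.1 to 48.0 CPM in FA and 28.9 to 43.1 CPM in DE (-0.17, adjusted p = 0.470). Gart, a purine enzyme that uses formyl-folate, was at 42.8 to 50.3 CPM in FA and 35.4 to 41.5 CPM in DE without passing (adjusted p = 0.154).

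Around the methionine cycle only Cth, the cystathionine lyase that yields cysteine, was called among 10 tested genes (10%, against 5.8% of all tested genes). It was low in every heart, at 0.564 to 0.897 CPM in FA and 1.33 to 2.42 CPM in DE (log2 fold change 1.28, adjusted p = 0.0174), and lost the call without FA replicate 2 or 4 or DE replicate 3 (adjusted p = 0.0649, 0.0669 and 0.0520). Mat2b, the regulatory partner of MAT2A, lay at 120.0 to 128 CPM in FA and 89.2 to 125 CPM in DE (adjusted p = 0.211). Ahcyl1, an AHCY-like protein, lay at 135 to 151 and 114 to 136 CPM (adjusted p = 0.271). Of 10 methyltransferases that spend S-adenosylmethionine, Dnmt1 and Nnmt were called higher (20%, against 3.58% of all tested genes). Dnmt1, which copies DNA methylation at replication, was at 50.1 to 75.1 CPM in FA and 85.0 to 90.3 CPM in DE (log2 fold change 0.47, adjusted p = 0.0434). Nnmt, which methylates nicotinamide, was at 0.959 to 1.48 and 1.71 to 2.99 CPM (1.04, adjusted p = 0.0235). Dnmt1 too kept its call only where FA replicate 6 was the library left out (adjusted p = 0.0610 to 0.126 without each of the others), and Nnmt lost it without FA replicate 2, 3 or 4 or DE replicate 3 or 5 (0.0739, 0.0587, 0.0853, 0.0721 and 0.0530). Cth, Dnmt1 and Nnmt also lost their calls with the name number as a term (adjusted p = 0.0813, 0.0865 and 0.0957). Dnmt3a, which sets new methylation marks, was at 112 to 177 CPM in FA and 98.8 to 115 CPM in DE (log2 fold change -0.47, adjusted p = 0.0826), and Prmt1, an arginine methyltransferase, was at 121 to 162 and 127 to 164 CPM.

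**Figure D4:**
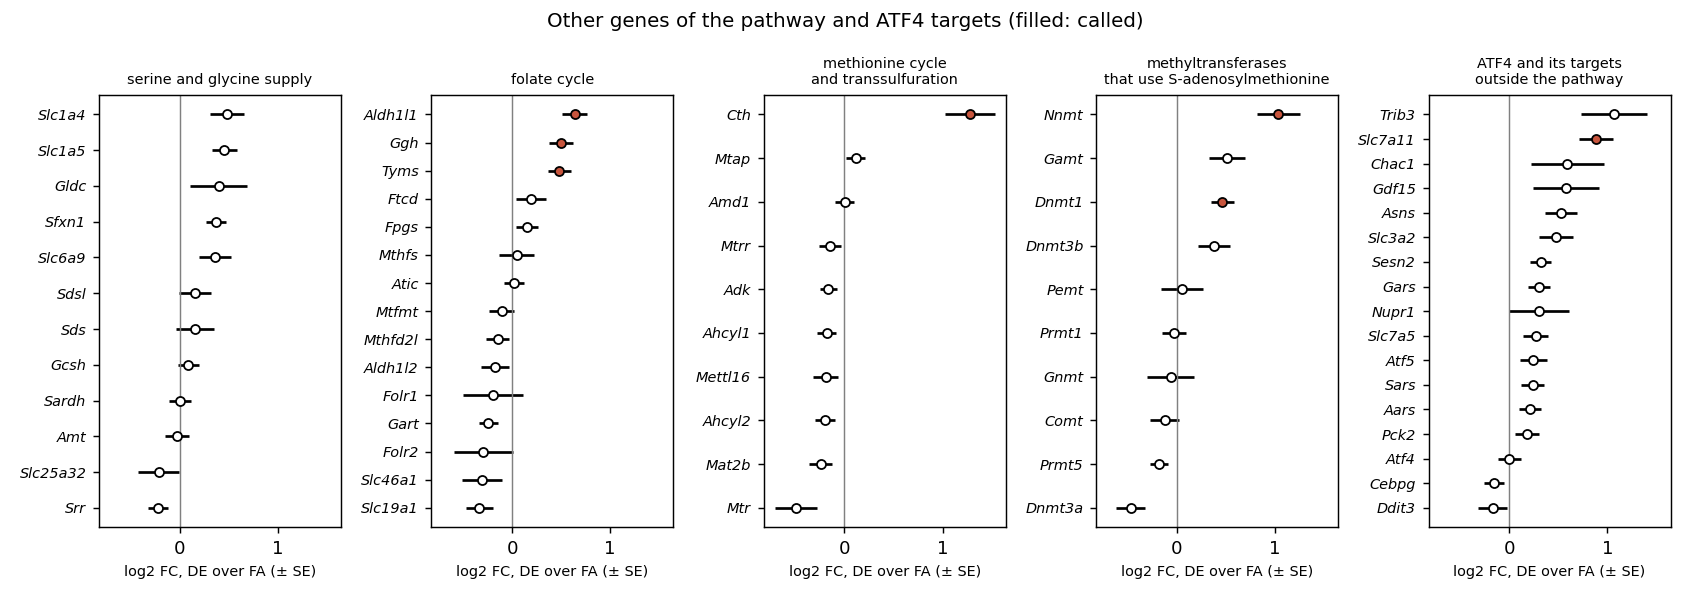
Points are log2 fold changes of DE over FA (bars ± SE) for every tested gene of the 4 pathway lists and of the ATF4 list, ordered within each list, with filled points for called genes. The 7 called genes all lie right of 0, some of them left of uncalled genes of their list, and in the ATF4 list 15 of 17 points lie right of 0.

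Outside the pathway, ATF4 targets were looked at because several of the 10 enzymes belong to them. Atf4 itself was level, at 191 to 241 CPM in FA and 189 to 237 CPM in DE (log2 fold change 0.0033, adjusted p = 0.989), which says nothing of its translation, the step at which the protein is known to be controlled. Of 17 tested genes on the list, 15 had higher means in DE (median 0.30 on the log2 scale), as did 50.5% of all tested genes. One gene in the list (5.88%) was called, about the 5.8% of all tested genes. That gene was Slc7a11, the cystine transporter, at 1.74 to 2.56 CPM in FA and 3.67 to 4.26 CPM in DE (log2 fold change 0.89, adjusted p = 0.0193). Its call was lost without FA replicate 2 or 3 or DE replicate 3 (0.0793, 0.0516 and 0.0627). It was also lost with the libraries numbered 11 alone (0.0701) and kept with the name number as a term (0.0429). Gars, the glycyl-tRNA synthetase, was at 117 to 147 CPM in FA and 141 to 181 CPM in DE (log2 fold change 0.31, adjusted p = 0.115). Ddit3 and Cebpg, picked out after their values were seen, were the genes with lower means in DE, at log2 fold changes of -0.17 and -0.16. Trib3, picked out likewise, had the largest change of the list, 1.07, without a call (adjusted p = 0.0798). An unadjusted p under 0.05 was found for 6 of the 17 genes, against 25.6% of all tested genes. Groups did not overlap for 3 of the 17, against 14.7% of all tested genes.

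Genes of other kinds moved between the groups in the same libraries. Over all tested genes 3.58% were called higher and 2.22% lower. Of 16 DNA replication genes, 15 were called higher, at log2 fold changes from 0.43 (Rfc3) to 0.91 (Gins1) and a median of 0.73, and their summed level was 467 to 643 CPM in FA and 818 to 866 CPM in DE. The 8 fibroblast markers were all higher in DE, from 0.28 (Tcf21) to 0.95 (Col1a1) on the log2 scale, and 2, Col1a1 and Dcn, were called. Their sum was 2008 to 3461 CPM in FA and 3655 to 6177 CPM in DE. The 8 cardiomyocyte markers were all lower in DE, from -0.06 (Tnni3) to -0.80 (Ttn), and 2, Myh6 and Pln, were called. The sum of the 8, 58532 to 64182 CPM in FA and 43663 to 50695 CPM in DE, showed that every library held cardiomyocyte RNA in quantity. Myh6 was the largest part of that sum, with means of 23299 CPM in FA and 14622 CPM in DE, while Tnnt2, like Tnni3, differed by only -0.06. The part of these shifts in the results for the 10 enzymes was not tested, and in bulk RNA fewer cells of a type and less RNA per cell cannot be told apart. FA replicate 6 was the highest FA library for fibroblast markers (3461 CPM), for replication genes (643 CPM), for cardiomyocyte markers (64182 CPM) and for endothelial markers (1282 CPM), and it was the highest FA library for 7 of the 10 enzymes, Psph, Shmt1 and Mthfd1 among them. DE replicate 5, the highest DE library for 8 of the 10 enzymes, was the highest DE library for cardiomyocyte markers (50695 CPM) and the lowest for fibroblast (3655 CPM), endothelial (1051 CPM) and smooth muscle and pericyte markers (445 CPM).

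Markers of the other cell types overlapped between the groups in their summed levels. Those of endothelial cells lay at 969 to 1282 CPM in FA and 1051 to 1562 CPM in DE, and those of smooth muscle and pericytes at 513 to 732 and 445 to 648 CPM, with no gene of either list called. Log2 fold changes ran from -0.0037 (Tek) to 0.60 (Egfl7) in the endothelial list and from -0.51 (Rgs5) to 0.31 (Myh11) in the other. Leukocyte markers summed to 12.6 to 18.8 CPM in FA and 16.3 to 26.7 CPM in DE with 1 of 6 tested genes, Itgam (0.94), called and Csf1r lowest at -0.18, and erythroid markers summed to 429 to 1024 and 674 to 1123 CPM. All 5 tested erythroid genes had higher means in DE, from 0.20 (Alas2) to 0.95 (Slc4a1), and Slc4a1 was called. Hepatocyte markers, of which Apoa1 (1.07) and Ttr (-0.05) could be tested and were not called, reached at most 3.37 CPM in sum.

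**Figure D5:**
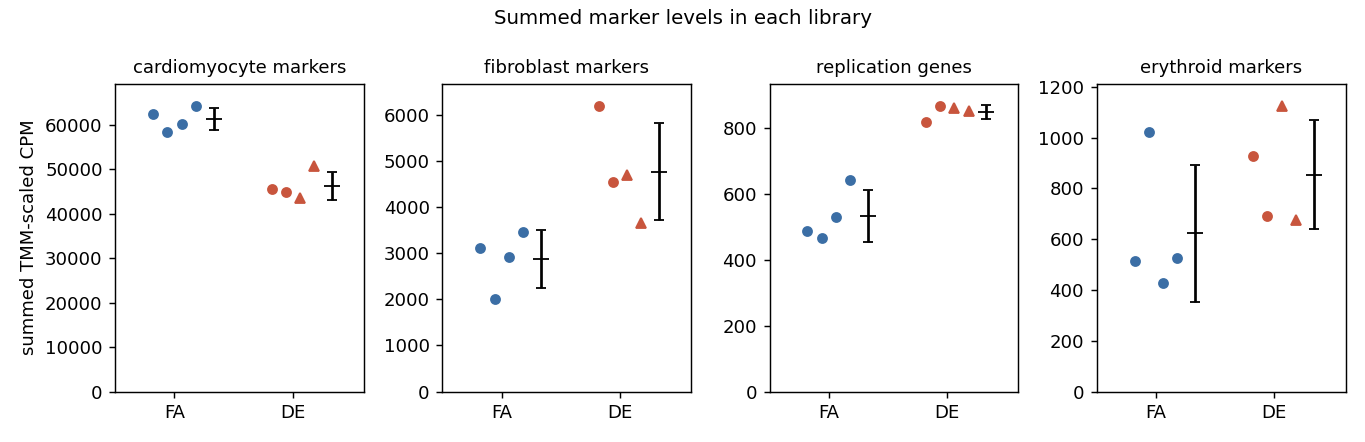
Panels plot the summed TMM-scaled CPM of 4 gene lists in each library from a baseline of 0, with FA in blue, DE in red, triangles for libraries named with 12 and a bar for the mean ± SD. FA and DE points are apart for cardiomyocyte markers (lower in DE), fibroblast markers and replication genes (both higher in DE) and mix for erythroid markers.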

How the data were processed

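RNA-seq counts of 8 libraries, 4 FA and 4 DE, were analysed. The authors enriched poly-A RNA, made stranded libraries, mapped reads to mm10 and the Ensembl v67 transcriptome with TopHat, flagged but kept duplicates (Picard), realigned and recalibrated them (GATK) and assigned fragments to genes (featureCounts). What they deposited are unnormalized counts for each Entrez gene, 17943024 to 39839737 per library. Kept duplicates are not independent molecules, and the counting annotation and strand setting are not given in the sources used here. The study's methods state 3 hearts per group without naming them, so all 8 were used. Libraries were compared in pairs within groups: the closest, FA replicates 2 and 4, had a chi-square of 5.06 per gene and the next pair 15.97. This value takes fragments as independent, which kept duplicates are not, so it cannot say whether a pair differed beyond sampling noise. Whether FA replicates 2 and 4 came from separate hearts was not tested.

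Symbols and positions are from an Entrez table on GRCm38.p6 (93.0% of 27179 genes matched), exon lengths from GENCODE M21 and promoters from RefSeq on GRCm38.p6. Genes kept by filterByExpr (minimum count 10) were scaled by TMM and tested with edgeR 4.0.16 (glmQLFit, glmQLFTest, exposure as the only term) in R 4.3.3, adjusted over all tested genes. The biological coefficient of variation was 15.9%. The 10 genes, the lists and the tests were chosen with earlier results of these data known, and the lists come from general knowledge. Named were the 10 genes, every called gene of the 4 pathway lists and the ATF4 list with the 2 uncalled genes of highest mean CPM in each, a few others said to be picked out after their values were seen, and the largest and smallest changes of the replication and marker lists where these are summarised. The erythroid marker Ahsp was not analysed here. A further 2 genes are not reported here and are in no list. Results were recomputed with DESeq2 1.42.0, the likelihood ratio test of edgeR, limma-voom (limma 3.58.1), the 25% difference built into the test, other scalings and filters, the name number as a term, libraries named with 11 alone and each library left out in turn. Offsets for transcript length and GC content (known for 95.6% of tested genes), and the same genes without offsets, were added after the data were seen. The code was tested on simulated data.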

Additional observations from a re-analysis of the deposited data

Results flagged for a closer look

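Within the groups of 4, the values of the 10 genes were searched for a library far from the other 3, in 20 sets of 4 values. Chance marks about 1 set in 20. Mat2a in DE replicate 7, at 262.18 CPM, stood apart from 203 to 204 CPM in the other DE libraries and gave its DE mean an SD of 29.3 CPM, against 12.7 CPM in FA. Ahcy in DE replicate 7, at 36.03 CPM, lay below 39.3 to 39.6 CPM in the other DE libraries. The gap between that library and the nearest other was most of the range of the group in both cases. The same heart was thus the high one for Mat2a and the low one for Ahcy. Without this library Ahcy had a log2 fold change of 0.35 (edgeR, adjusted p = 0.0744) and was still not called.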

How the results depend on the processing

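Among the 21 alternatives the 4 called genes were higher in DE throughout, and Mthfd1l was called in 20 of them, Mthfd2 in 17, Shmt2 in 12 and Phgdh in 9. The number of the 10 genes called, 4 in the report, was 6 with DESeq2 or with library totals, 0 with the 25% difference built into the test, 2 with the name number as a term and 1 in libraries named with 11 alone, and 1 to 4 when a library was left out (1 without FA replicate 2 or 4, 2 without FA replicate 3 or DE replicate 3, 5 or 7). Over all genes, 868 calls became 1633 with DESeq2, 1603 with the likelihood ratio test, 114 with the 25% difference built in, 448 with the name number as a term, 260 with number 11 alone, 1510 with offsets for length and GC content, and 237 to 1168 without a library. Of the other pathway genes, 6 in the report, 9 were called with DESeq2 or the likelihood ratio test, 8 with library totals or the offsets, 0, 1 and 0 with the built-in difference, the name term and number 11 alone, and 0 to 8 without a library. Number 11 alone leaves 6 libraries; the cause of the other shifts was not tested. Of the calls over all genes, 61.8% were higher in DE with TMM factors and 78.7% with library totals alone.

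The 2 values that changed sign were both near 0. Shmt1 was at -0.026 with the name term, -0.031 with number 11 alone, -0.0030 with the offsets and -0.048 to 0.070 without a library. Mat2a was at 0.021 with library totals, 0.046 with the name term, 0.042 with number 11 alone and 0.00017 with the offsets. Single-gene results for the 10 enzymes otherwise kept direction and side of the threshold in 166 cases, lost a call in 26 and gained one in 8. No paired analysis was possible because the groups share only 1 replicate number. The effect of sequencing depth on these calls was not tested.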
